A study of Caenorhabditis elegans with 4 samples.

Results

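The 8 genes described here were chosen by name as genes of the early embryo and of embryonic tissue fate, read as a measure of the embryos carried inside adult Caenorhabditis elegans. They were the Skp1-related genes skr-7, skr-8, skr-9 and skr-10, the T-box genes tbx-37 and tbx-38, and the fate factors pha-4 and hlh-1. Each was found as 1 locus among the 19852 loci of the deposited tables, and all 8 were among the 10655 compared genes, which had a mean of at least 1 RPKM over the libraries (RPKM, reads scaled to transcript length and to the mapped reads of the library). RNA came from whole adults of the wild-type strain N2, grown at 20 C on RNAi media, in 4 libraries of 1 per group. Synchronized animals on control RNAi (control food, whose content the labels do not describe) or on food labelled elt-2 RNAi (labelled elt-2 food; the labels write ELT-2 RNAi) spent 36 h from day 1 of adulthood either in normoxia or in 0.5% oxygen with the balance nitrogen, the latter in a sealed chamber at room temperature. How many animals went into each library is not stated in the labels. In feeding RNAi, worms eat bacteria carrying double-stranded RNA against a chosen gene. The gene named here, elt-2, encodes the main GATA factor of the worm gut.

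An adult hermaphrodite holds fertilized eggs in its uterus, so whole-animal RNA includes embryonic RNA. The embryo first runs on transcripts loaded into the oocyte. Its own genome is then switched on in successive waves, of which the earliest serve cell fate decisions and later ones serve tissue differentiation, cuticle formation and hatching. SKR proteins are adaptors of SCF ubiquitin ligases, in which they join an F-box protein to a cullin. TBX-37 and TBX-38 act redundantly in the early embryo to give mesoderm, including part of the pharynx, from descendants of the anterior blastomere ABa. PHA-4 is the FoxA factor that specifies the pharynx and remains active in the pharynx, gut and somatic gonad later in life, and HLH-1 is the MyoD homologue of body wall muscle.

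With 1 library per group, no pairwise ratio below has a replicate error or a test, and a 2-fold threshold is used as a measure of size. The elt-2 gene went against its label, at 4.81 RPKM in normoxia and 15.2 in hypoxia on control food, against 14.3 and 23.8 on labelled elt-2 food. Every direction given for RNAi therefore rests on the labels, while the hypoxia comparison on control food uses neither labelled elt-2 library. Between 10462 and 11048 loci per library were listed at 1 RPKM or more. From the spacing of low values, 1 fragment was worth roughly 0.0446 to 0.0509 RPKM on a transcript of 1 kb. In whole-animal RNA, fewer embryos and less RNA per embryo cannot be told apart.

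The early embryonic members were lower in hypoxia in both foods, and the fate factors pha-4 and hlh-1 were higher in hypoxia in both. For all of skr-7, skr-8, skr-9, skr-10, tbx-37 and tbx-38 the 4 libraries fell in the same order, with control food normoxia highest, then labelled elt-2 food normoxia, then control food hypoxia, and labelled elt-2 food hypoxia lowest. That order was found in 6.12% of all compared genes. Both hypoxia libraries lay below both normoxia libraries for these 6 genes and above them for pha-4 and hlh-1, as for 34.7% and 34.2% of all compared genes.

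**Figure D1:**
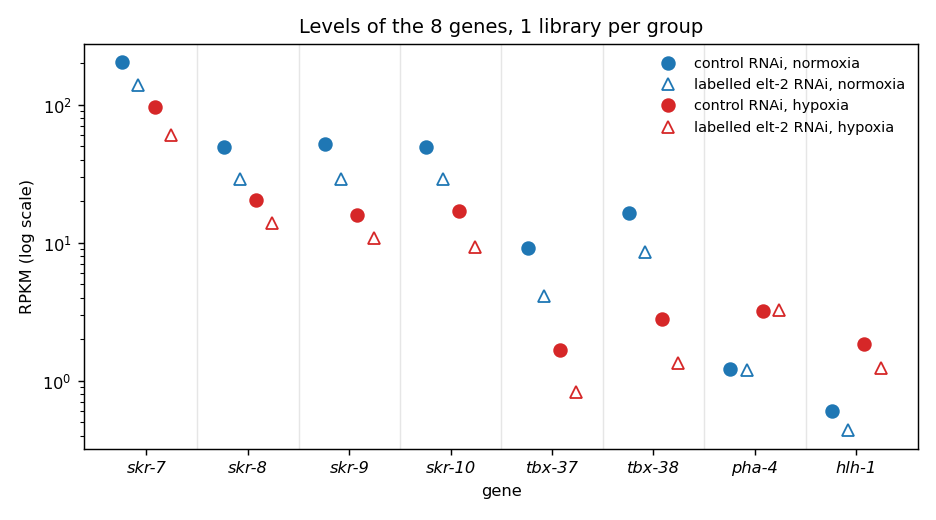
RPKM of the 8 genes (log axis) in the 4 libraries, 1 point per library, with filled circles for control food, open triangles for labelled elt-2 food, blue for normoxia and red for hypoxia. The skr and tbx genes step down from left to right within each gene, whereas pha-4 and hlh-1 are higher in the red points, up to 3.27 and 1.85 RPKM.

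The skr members were the most abundant per length. skr-7, on chromosome V from 4422392 to 4423068 (plus strand; all coordinates are those of the files, on ce10), was at 202 RPKM in control food normoxia, 96.0 in control food hypoxia, 138 in labelled elt-2 food normoxia and 60.3 in labelled elt-2 food hypoxia. Its log2 ratio of hypoxia over normoxia, taken as for all ratios below on RPKM + 1, was -1.07 on control food and -1.18 on labelled elt-2 food. The highest hypoxia library was below the lowest normoxia library, as for 34.7% of all compared genes.

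skr-8 (chromosome IV, 17165153 to 17165817, minus strand) was at 49.5 RPKM in control food normoxia, 20.5 in control food hypoxia, 28.8 in labelled elt-2 food normoxia and 13.9 in labelled elt-2 food hypoxia. Its hypoxia ratio was -1.23 on control food and -0.996 on labelled elt-2 food, the latter falling just short of 2-fold. skr-9 (chromosome IV, 17163518 to 17164172, plus strand) was at 51.96, 15.8, 28.9 and 10.8 RPKM in the same order of libraries, with hypoxia ratios of -1.66 and -1.34. These neighbouring genes on opposite strands thus lay close together in level in each library.

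skr-10 (chromosome IV, 15946755 to 15947406, plus strand) was at 49.1, 16.8, 29.1 and 9.35 RPKM in that order, with hypoxia ratios of -1.49 on control food and -1.54 on labelled elt-2 food. Although it lies apart from the others, it stayed within 1.01 to 1.49 times of skr-8 and skr-9 in every library, as the ratio of the highest to the lowest of the 3. skr-7 was 4.03 to 5.42 times their mean. The summed level of the 4 skr genes was 353 RPKM in control food normoxia, 149 in control food hypoxia, 225 in labelled elt-2 food normoxia and 94.3 in labelled elt-2 food hypoxia. The skr genes are close paralogs, and reads could be split between copies in a way the sources used here do not describe.

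The T-box members had lower levels and larger ratios. tbx-38 (chromosome III, 11784114 to 11785952, minus strand) was at 16.5 RPKM in control food normoxia, 2.81 in control food hypoxia, 8.60 in labelled elt-2 food normoxia and 1.35 in labelled elt-2 food hypoxia. Its hypoxia ratios of -2.20 and -2.03 were the most negative among the 8 genes in either food, and tbx-38 was the member past 4-fold in both. tbx-37 (chromosome III, 11224701 to 11227262, minus strand) was at 9.13, 1.67, 4.10 and 0.822 RPKM in the same order, with ratios of -1.92 and -1.48.

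Without the pseudocount, tbx-37 was 5.46-fold lower in hypoxia on control food and 4.99-fold lower on labelled elt-2 food, and tbx-38 was 5.86-fold and 6.38-fold lower. tbx-37 stood at 0.477 to 0.609 times the level of tbx-38 in the 4 libraries, so these redundant paralogs kept a similar proportion while their sum ran from 25.6 to 2.17 RPKM. The lowest values, in labelled elt-2 food hypoxia, rest on roughly 19 fragments for tbx-37 and 32 for tbx-38. As for the skr genes, reads may be split between these similar paralogs.

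On control food, 6 of the 8 genes were at least 2-fold lower in hypoxia, against 3.55% of all compared genes, and on labelled elt-2 food 5 of 8, against 4.25%. The 5 that passed in both foods were skr-7, skr-9, skr-10, tbx-37 and tbx-38, where 2.3% of all compared genes did so. The members were chosen with earlier results of these data known, so the contrast with these shares is not independent of the data. The median log2 ratio of the 8 genes was -1.36 on control food and -1.26 on labelled elt-2 food, beside 0.01 and -0.01 for all compared genes. On RPKM + 1, the log2 hypoxia effect differed between foods by -0.12 to 0.44 among the skr and tbx genes, largest for tbx-37. This difference has no test in 4 libraries, and its order among genes depends on the pseudocount. In plain RPKM, skr-9 was 3.30-fold lower in hypoxia on control food and 2.67-fold on labelled elt-2 food, beside 5.46-fold and 4.99-fold for tbx-37. For tbx-38 the plain folds, 5.86 and 6.38, put the larger fall on labelled elt-2 food, opposite to RPKM + 1.

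pha-4 (chromosome V, 20752905 to 20760282, plus strand) was at 1.21 RPKM in control food normoxia, 3.20 in control food hypoxia, 1.19 in labelled elt-2 food normoxia and 3.27 in labelled elt-2 food hypoxia. The foods barely differed within an oxygen level, and the hypoxia ratio was 0.92 on control food and 0.96 on labelled elt-2 food. Without the pseudocount these are 2.64-fold and 2.75-fold.

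hlh-1 (chromosome II, 4519066 to 4522454, plus strand) was at 0.602, 1.85, 0.437 and 1.23 RPKM in the same order of libraries, with hypoxia ratios of 0.83 and 0.64. Its mean of 1.03 RPKM was just above the filter, and its values rest on roughly 9.9 to 44 fragments. Because of the pseudocount, neither gene passed 2-fold higher (9.48% of all compared genes did on control food and 9.87% on labelled elt-2 food), although both were more than 2-fold higher in plain RPKM. B0304.4, on the other strand and 16 bases away, was at 58.5 to 91.2 RPKM, and the sources used here do not say whether strand was used in counting.

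**Figure D2:**
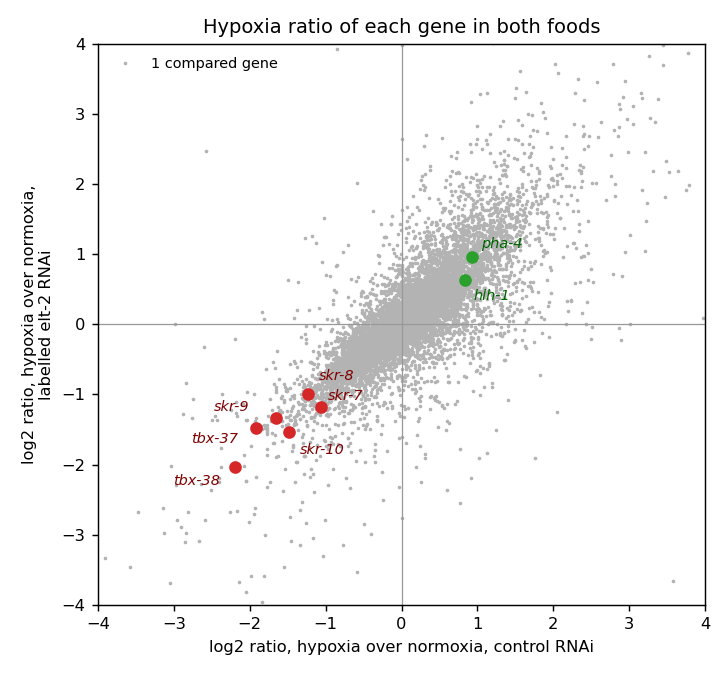
Log2 ratio of hypoxia over normoxia on control food (x axis) against labelled elt-2 food (y axis), with 1 grey point per compared gene, the skr and tbx genes in red and pha-4 and hlh-1 in green. The red points lie in the lower left, down to -2.20 and -2.03 for tbx-38, and the green points in the upper right; 30 genes lie outside the range of 4 shown on either side of 0.

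An average hypoxia effect over both foods was fitted with limma across all compared genes, with additive terms for oxygen and food. The 1 residual degree of freedom is the difference of the hypoxia effect between foods, and limma moderated it toward the spread of all genes of like level, for 3.68 degrees of freedom in all. The SE of a gene is therefore mostly shared and is no replicate error. Whether the 4 libraries stem from separate cultures is not stated. limma called 6 of the 8 genes lower, against 15.7% of all compared genes, and 1 higher, against 17.2%. tbx-38 fell by 2.11 ± 0.16 on the log2 scale (SE, 4 libraries; limma adjusted p = 0.0144) and tbx-37 fell by 1.70 ± 0.20 (limma adjusted p = 0.0203).

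By the same fit, skr-10 fell by 1.51 ± 0.10 and skr-9 by 1.498 ± 0.13 on the log2 scale, and skr-7 and skr-8 fell by 1.12 ± 0.07 and 1.11 ± 0.11, with limma adjusted p from 0.0143 to 0.0171 over the 4 genes. pha-4 rose by 0.94 ± 0.17 (limma adjusted p = 0.0332). hlh-1, at 0.73 ± 0.19, did not pass (limma adjusted p = 0.0554). The authors' deposited tables, which test 1 library against 1 library, called none of the 8 genes in any of the 6 comparisons. They called few genes at all, from 61 to 204 of the 19852 loci in each comparison. The lowest of their 48 adjusted p-values in the authors' deposited tables was 0.0855, for tbx-38. It came from control food normoxia against labelled elt-2 food hypoxia, where oxygen and food both differ. For hypoxia within a food, the authors' adjusted p of tbx-38 was 0.2005 on control food and 0.245 on labelled elt-2 food. Of the authors' unadjusted p-values 14 were below 0.05. These were 6 in the comparison where both differ, 5 for hypoxia on control food and 3 for hypoxia on labelled elt-2 food.

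Across the rest of the skr family no common direction was seen. Of 15 other compared skr genes, limma called 4 lower and 6 higher in hypoxia, and their median log2 ratio was 0.07 on control food and 0.02 on labelled elt-2 food. Those lower were skr-14, skr-15, skr-13 and skr-16, with average log2 ratios of -1.24, -1.15, -0.93 and -0.51. Those higher were skr-5, skr-4, skr-19, skr-3, skr-20 and skr-21, at 2.32, 1.37, 1.27, 1.199, 1.04 and 0.61. skr-12 was at -0.72 (limma adjusted p = 0.0503).

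skr-2 and skr-1, the core Skp1 genes, had levels from 331 to 352 RPKM and from 228 to 240 RPKM and average ratios of -0.03 and 0.05. The ratios of skr-18 and skr-17 were 0.06 and -0.06, and skr-6 was listed at 0 in every library. skr-3, skr-4 and skr-5 are known to work with the cullin CUL-6 in the response to intracellular infection. cul-6 itself was at 2.02 and 5.01 RPKM in control food normoxia and hypoxia, and at 3.08 and 11.1 on labelled elt-2 food (average log2 ratio 1.28 ± 0.22, limma adjusted p = 0.0304). Of 7 compared SCF partner genes, limma also called cul-1 and cand-1 lower, at -0.55 and -0.53.

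The genes beside the skr members were looked up within 10000 bases, a window chosen after values were seen, and no test of position was made. skr-8 and skr-9 lie with skr-13 and skr-12 within 5889 bases of chromosome IV, and skr-7 lies head to head with skr-14 on chromosome V, 328 bases apart. skr-14 was at 88.9, 34.4, 56.4 and 25.0004 RPKM in control food normoxia, control food hypoxia, labelled elt-2 food normoxia and labelled elt-2 food hypoxia, and skr-13 at 44.7, 22.8, 29.3 and 15.1. Both had the order of libraries of the members beside them.

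skr-12, inside the cluster, departed from that order, at 80.6, 39.2, 98.8 and 73.9 RPKM, and of the other skr genes called lower, skr-15 and skr-16 do not lie within the window of any member. Of 3 compared neighbours of skr-10, Y105C5B.12 was lower in hypoxia on both foods, with log2 ratios of -1.51 and -1.23. Y105C5B.14 and Y105C5B.15 were lower on control food, at -1.02 and -1.18, but higher on labelled elt-2 food, at 1.52 and 1.27. Of 6 compared neighbours of tbx-37 or tbx-38, none was 2-fold lower in hypoxia on either food.

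Among 6 other compared early zygotic and endomesoderm genes, vet-6 and pes-10 had hypoxia ratios as negative as those of the T-box members, and 3 genes had positive ones. vet-6, named as a very early transcript, was at 30.7 RPKM in control food normoxia, 4.09 in control food hypoxia, 17.6 in labelled elt-2 food normoxia and 2.84 in labelled elt-2 food hypoxia (average log2 ratio -2.46 ± 0.16, limma adjusted p = 0.0144). pes-10, among the first genes the embryo transcribes, was at 20.8, 3.19, 13.5 and 2.54 RPKM (-2.21 ± 0.17, limma adjusted p = 0.0144). sdz-28, a SKN-1-dependent zygotic gene, had an average ratio of -0.96 and was also called lower. elt-7, a GATA factor of the gut lineage that stays on in the adult intestine, was called higher at 1.21. sdz-5 and the posterior Hox gene nob-1, at 0.59 and 0.45, were not called (limma adjusted p = 0.0839 and 0.257).

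Over the list, limma called 3 lower and 1 higher, with medians of -0.39 on control food and -0.35 on labelled elt-2 food. The remaining early endomesoderm factors were under the filter and were not compared. med-1 and med-2 were listed at 0 in all libraries, tbx-35 did not exceed 0.0436 RPKM and end-1 lay between 0.146 and 0.512 RPKM. end-3 was at 0.934 and 0.615 RPKM in control food normoxia and hypoxia and at 1.19 and 0.645 on labelled elt-2 food. sdz-1 was higher in hypoxia, at 0.175 and 1.32 RPKM on control food and 0.584 and 1.26 on labelled elt-2 food. sdz-38 was lower, at 1.07 and 0.493 RPKM on control food and 1.64 and 0.276 on labelled elt-2 food. The 6 compared genes of the list had 3 positive and 3 negative hypoxia ratios on each food. With the filter raised to a mean of at least 5 RPKM, sdz-5 and nob-1 dropped out. The list medians were then -1.78 on control food and -1.39 on labelled elt-2 food. The skr and tbx members were taken as early embryonic when they were chosen, and their stage was not measured here. Whether early zygotic RNA as a class was lower in hypoxia was not tested.

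Of 9 other compared T-box genes, limma called 5 lower and 1 higher, with a median of -0.83 in either food. tbx-11 was at -1.24, sea-1, a signal of autosome number in sex determination, at -1.19, and tbx-33 at -1.16. tbx-2, which is needed for pharyngeal muscle, was the one called higher, at 1.26 and 3.92 RPKM on control food and at 1.6003 and 3.86 on labelled elt-2 food (average log2 ratio 1.01). Of 5 compared Notch pathway genes, limma called 4 lower, among them the ligand gene lag-2 at -1.09, the ligand gene apx-1 at -0.52 and the receptor gene glp-1 at -0.41, while ref-1 was at -0.58 without passing. Their median was -0.55 on control food and -0.44 on labelled elt-2 food.

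Fate factors of individual tissues went both ways, as pha-4 and hlh-1 differ from the tbx genes. Of 4 compared pharynx organogenesis factors, tbx-2 alone was called, with pha-1, peb-1 and eya-1 at -0.42, 0.42 and -0.25, and list medians of 0.24 on control food and -0.07 on labelled elt-2 food. Of 9 compared muscle fate factors, limma called tbx-9 (-0.85), the Sox gene sem-2 (-0.78) and 1 further gene lower and the zinc finger gene fozi-1 (0.77) higher. unc-120, the SRF homologue that works beside HLH-1, was at 0.68 (limma adjusted p = 0.0574), and the list medians were -0.00 and -0.18.

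Of 10 compared ectoderm and neuronal fate factors, limma called 2 in each direction. The Hox genes ceh-13 and php-3 were at 1.02 and 0.98, and the E protein gene hlh-2 and the zinc finger gene die-1 at -0.88 and -0.75. The medians of that list were 0.02 and 0.07.

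Of 5 compared genes of hatching and the embryonic sheath, 3 were called higher in hypoxia. hch-1, which encodes the protease that lets larvae hatch, was at 0.301 RPKM in control food normoxia, 4.19 in control food hypoxia, 0.2403 in labelled elt-2 food normoxia and 3.88 in labelled elt-2 food hypoxia (average log2 ratio 1.99 ± 0.17, limma adjusted p = 0.0157). sym-1, expressed in the embryonic epidermis, was at 0.588, 4.82, 0.450 and 4.04 RPKM (1.84 ± 0.17, limma adjusted p = 0.0167). noah-1, of the embryonic sheath, was at 2.13, 5.40, 1.92 and 5.56 RPKM (1.10 ± 0.17, limma adjusted p = 0.0263).

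limma called none of the 5 lower, and noah-2 at 0.54 and let-653 at -0.08 did not pass (limma adjusted p = 0.0699 and 0.749). The medians of the list were 1.03 on control food and 1.17 on labelled elt-2 food, and 0.54 and 0.61 with a pseudocount of 5 RPKM. The low normoxia levels of hch-1 and sym-1 mean that the pseudocount understates their ratios.

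**Figure D3:**
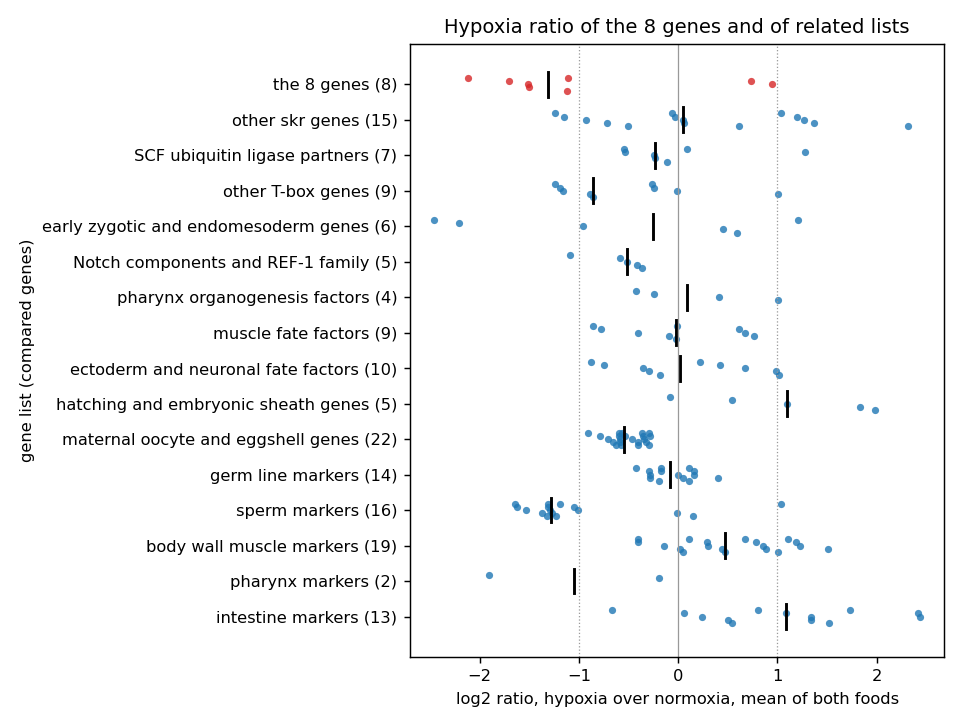
Log2 ratio of hypoxia over normoxia, as the mean of both foods, for the 8 genes (red) and for the compared genes of each related list (blue), with a black bar at each list's median and dotted lines at 2-fold. The hatching and embryonic sheath genes lie to the right with a median of 1.10, the maternal genes form a tight group near -0.55, and the 8 genes have a median of -1.31.

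Maternal transcripts of oocytes and eggs were lower too, by less. Of 22 compared maternal and eggshell genes, all had a negative hypoxia ratio in both foods, none passed 2-fold, and limma called 20 lower. Their medians were -0.57 on control food and -0.43 on labelled elt-2 food. oma-2, needed for oocyte maturation, was at -0.90, and the RNA-binding protein genes spn-4, nos-2 and mex-3 were at -0.79, -0.71 and -0.66. Of 14 compared germ line markers limma called 2 lower (pgl-3 at -0.42 and syp-2 at -0.28) and 1 higher (syp-3 at 0.40), with medians of -0.11 and -0.04.

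The marker lists of other tissues moved as well, and their part in the results above was not tested. The 20 body wall muscle markers outside merged loci, none listed at 0 in any library, summed to 1249 and 1139 RPKM in the control and labelled elt-2 food normoxia libraries and to 2643 and 2344 RPKM in the respective hypoxia libraries. Of 19 compared, limma called 10 higher, led by mlc-2, unc-15, lev-11 and tnt-2 at 1.51, 1.23, 1.18 and 1.11. The 13 intestine markers, none at 0, summed to 1840 and 644 RPKM in normoxia and to 3590 and 1434 RPKM in hypoxia, and limma called 6 higher, among them ifd-2, ifb-2, ifc-2 and act-5 at 2.44, 2.42, 1.74 and 1.52. pha-4 and hlh-1 are expressed in adult tissue of these kinds, and pha-4 also in the pharynx. The pharynx marker sums, given next, were lower in hypoxia on control food and differed little on labelled elt-2 food. Which tissue the RNA of pha-4 and hlh-1 came from was not tested.

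Pharynx markers were scarce. The 10 loci summed to 29.6 and 24.6 RPKM in normoxia and 17.1 and 23.4 in hypoxia, with 4 of them at 0 in at least 1 library, myo-2 at 0.125 to 0.247 RPKM and tnt-4 at 0.0707 to 0.191 RPKM. Only tni-4 and phat-6 were compared, at average ratios of -0.19 and -1.90 (phat-6 was listed at 0 in control food hypoxia), and neither was called. The 38 sperm loci, 9 of them at 0 in at least 1 library, summed to 81.3 and 54.3 RPKM in normoxia and 47.4 and 37.1 in hypoxia. Of 16 compared sperm markers limma called 13 lower and 1 higher, with msp-81, msp-57, msp-152 and msp-64 at -1.65, -1.63, -1.53 and -1.37, all from a family of near-identical copies.

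Labelled elt-2 food went with lower levels of the skr and tbx members at both oxygen levels. The RNAi ratio in normoxia was -0.55 for skr-7, -0.76 for skr-8, -0.83 for skr-9, -0.74 for skr-10, -0.99 for tbx-37 and -0.86 for tbx-38. In hypoxia it was -0.66, -0.53, -0.50, -0.79, -0.55 and -0.70 in the same order of genes. With the pseudocount of 1 RPKM none of the 8 genes passed 2-fold lower, which 3.66% of all compared genes did in normoxia and 5.08% in hypoxia, and none passed 2-fold higher (1.23% and 1.94%). In plain RPKM tbx-37 was 2.23-fold lower in normoxia and 2.03-fold lower in hypoxia, and tbx-38 was 1.92-fold and 2.09-fold lower, so that the count of 0 holds on the scale with the pseudocount.

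Of the 8 genes, 7 were lower on labelled elt-2 food at both oxygen levels, as were 26.4% of all compared genes. pha-4 was the exception, with RNAi ratios of -0.02 in normoxia and 0.02 in hypoxia, and hlh-1 was at -0.16 and -0.35. The median over the 8 genes was -0.75 in normoxia and -0.54 in hypoxia, beside 0.04 and 0.05 for all compared genes.

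limma called none of the 8 genes for the average RNAi effect, in a fit that called 0.976% of all compared genes lower and 0.131% higher. Its unadjusted p was below 0.05 for 6 of them, and in the authors' deposited tables it was below 0.05 for none at either oxygen level. The share of all compared genes with a limma unadjusted p below 0.05 was not counted. Among other lists, that p was below 0.05 for 9 of 22 maternal genes, 5 of 15 other skr genes and 1 of 9 other T-box genes. skr-7 had an average RNAi effect of -0.60 ± 0.07 (SE, 4 libraries; limma adjusted p = 0.0780) and tbx-38 one of -0.78 ± 0.16 (limma adjusted p = 0.183). skr-10, tbx-37, skr-9 and skr-8 were at -0.76, -0.77, -0.67 and -0.65, with limma adjusted p from 0.0953 to 0.254.

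The maternal genes did not share this RNAi ratio, with 21 of 22 above 0 in normoxia and 20 of 22 in hypoxia, and medians of 0.14 and 0.18. Among early zygotic genes vet-6, pes-10 and sdz-28 were at -0.77, -0.59 and -0.78 in normoxia and at -0.41, -0.24 and -0.33 in hypoxia. In all lists named above, the intestine markers were the ones with limma calls for RNAi, 2 of 13 lower, and their summed level above was lower on labelled elt-2 food at both oxygen levels. In hypoxia 6 of the 13 nevertheless had RNAi ratios above 0, among them ifd-2 at 1.40, ifb-2 at 1.18 and opt-2 at 0.95, while cpr-1, mtl-2, mtl-1 and asp-1 were at -7.11, -7.01, -1.93 and -1.89. The part of these markers in the RNAi ratios of the members was not tested. Since control food normoxia is the reference of both effects, values for hypoxia and RNAi in that library's comparisons are given side by side and not correlated.

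**Figure D4:**
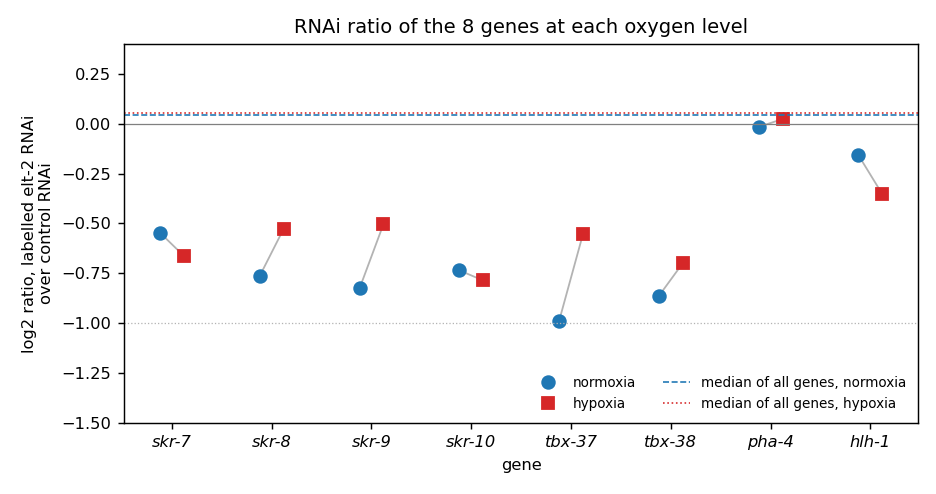
RNAi effect on the 8 genes as the log2 ratio between foods, in normoxia (blue circles) and hypoxia (red squares), with the medians of all compared genes as horizontal lines and a dotted line at 2-fold lower. The skr and tbx genes lie between -0.99 and -0.50, pha-4 lies at 0.02 or nearer to 0, and hlh-1 lies between them.

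Against control food normoxia, plain RPKM in labelled elt-2 food hypoxia was 12.2-fold lower for tbx-38 and 11.1-fold lower for tbx-37, and 5.25-fold, 4.80-fold, 3.56-fold and 3.35-fold lower for skr-10, skr-9, skr-8 and skr-7. The log2 ratio over that step was -2.90 for tbx-38 and -1.73 for skr-7, the ends of the range of these genes, and 0.95 and 0.48 for pha-4 and hlh-1.

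The genes most like the skr and tbx members over the 4 libraries were then sought. Likeness was measured as the Euclidean distance between centred log2 profiles, among 8003 other genes averaging 5 RPKM or more. Of these, 57 lay nearer to the mean profile of the 6 genes than their own farthest member did, at 0.608. The nearest was dsl-2, which encodes a protein with the DSL domain of Notch ligands, at 55.7, 18.8, 32.1 and 12.2 RPKM in control food normoxia, control food hypoxia, labelled elt-2 food normoxia and labelled elt-2 food hypoxia (distance 0.0940). Next came sdz-26 (0.147), the F-box gene fbxb-17 (0.156), F56A8.8 (0.167), sdz-9 (0.173), dsl-1 (0.177), EEED8.4 (0.182), M01E5.6 (0.182), pes-2.1 (0.187) and T08B6.5 (0.202).

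By their names, sdz-26 and sdz-9 were identified as SKN-1-dependent zygotic genes. The 5 genes nearest to the mean profile of pha-4 and hlh-1 were clec-97 (0.00986), ucr-2.1 (0.0213), the muscle gene cpn-3 (0.0517), ftr-1 (0.0558) and ZK1058.9 (0.0637), and 63 genes lay nearer than the farther of these members. The profiles were taken on RPKM + 1, which understates the changes of pha-4 and hlh-1 more than those of these more abundant genes. In plain RPKM, pha-4 and hlh-1 were 2.64-fold and 3.08-fold higher in hypoxia on control food. On labelled elt-2 food they were 2.75-fold and 2.83-fold higher. The 5 nearest genes were each less than 2-fold higher on either food. Their nearness therefore depends on the pseudocount, and likeness in plain RPKM was not measured. All these distances are descriptions over 4 libraries, with no test.

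**Figure D5:**
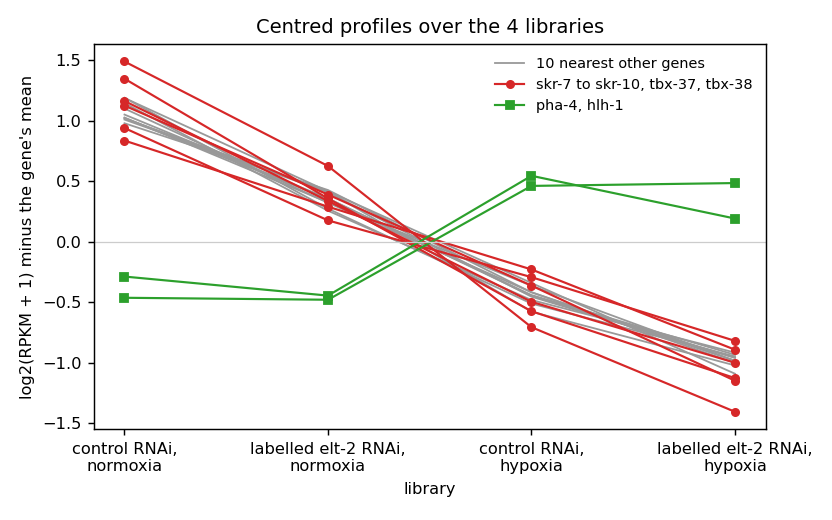
Log2(RPKM + 1) minus each gene's mean over the 4 libraries (1 point per library), for the skr and tbx genes (red), the 10 nearest other genes (grey) and pha-4 and hlh-1 (green). Red and grey lines descend from control food normoxia to labelled elt-2 food hypoxia, while the green lines are higher in hypoxia.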

How the data were processed

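The deposited files give RPKM per gene, per the file headers, with 6 tables for the 6 pairs of libraries. Libraries were of 100 bp paired-end reads sharing a lane, per the labels' protocols. TopHat2 2.0.8b, Cufflinks 2.1.1 and the build ce10 appear in the submitters' processing notes, without their roles. Which annotation was used, and whether strand was, is not stated in those sources. The same libraries had identical values in all tables (0 differing). The deposited tables also hold the authors' log2 fold changes, p-values and FDR-adjusted p-values per gene, which are credited where printed; the authors' log2 fold changes were not used.

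Loci naming several genes (334) or with a failed status (8) were left out, as were genes with a mean under 1 RPKM. Log2 ratios were computed on RPKM + 1, which understates changes of low genes. Average effects were estimated over all 10655 compared genes by limma 3.58.1 under R 4.3.3 (additive terms, mean-variance trend, Benjamini-Hochberg adjustment at 0.05) after a check on simulated data. Transcript lengths came from the WBcel235 annotation, which gave a length for 97.5% of compared genes and was used for no coordinates. Total reads are unknown here; the fragment size was read as the commonest value of RPKM times length among loci under 0.2 RPKM, a rough estimate for which no interval is given.

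The members and lists were chosen with earlier results of these data known. Of each list the text names up to 4 genes with the largest absolute average hypoxia ratio, all skr genes, and the genes nearest in profile. Alternatives were other pseudocounts, filters, scalings, a length correction and limma without the trend.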

Additional observations from a re-analysis of the deposited data

Results flagged for a closer look

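Among the members, their neighbours, the nearest genes in profile and the named list genes, 2 had hypoxia ratios past 2-fold in opposite directions in the foods, and this difference was not tested. Both lie within 10000 bases of skr-10. Y105C5B.15 was at 136 and 59.6 RPKM in control food normoxia and hypoxia but 81.9 and 199 RPKM on labelled elt-2 food, so its hypoxia ratio was 2.45 higher on labelled elt-2 food on the log2 scale (1.27 against -1.18). Y105C5B.14 was at 1.74 and 0.356 RPKM on control food and 0.963 and 4.63 RPKM on labelled elt-2 food, a difference of 2.54 (1.52 against -1.02). Both lie on the same side of skr-10, for which this difference was -0.05.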

How the results depend on the processing

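No paired analysis was possible because each group has 1 library and the labels carry no replicate numbers; for the same reason no library could be left out of the limma fit with a residual degree of freedom remaining. The cause of each change below was not tested beyond the setting itself. With a pseudocount of 0.1 RPKM, hypoxia ratios of pha-4 and hlh-1 passed 2-fold on control food (1.33 and 1.48) and on labelled elt-2 food (1.39 and 1.31), so that 2 members were 2-fold higher in each, skr-8 passed 2-fold lower on labelled elt-2 food (-1.04), and RNAi ratios of tbx-37 in normoxia (-1.14) and tbx-38 in hypoxia (-1.01) gave 1 member lower in each. With 5 RPKM, tbx-37 was at -0.64 for hypoxia on labelled elt-2 food. With the length trend removed, pha-4 was at 1.03 in either food (1 member higher in each) and skr-8 at -1.12 on labelled elt-2 food, where centring on the median gene gave -1.01. Scaling to the upper quartile put tbx-37 at -1.03 for RNAi in normoxia, 1 member lower. At 4-fold, 1 member was lower in hypoxia in either food. At a mean of 5 RPKM or more tbx-37, pha-4 and hlh-1 dropped out, and ssp-10 was the one sperm marker left, so that the sperm value on control food turned to 1.28, the ratio of that gene.

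limma called 1677 genes lower and 1833 higher for hypoxia, against 1017 and 1198 with no filter and 834 lower without the trend. For RNAi it called 104 lower and 14 higher, against 45 and 6 with 5 RPKM, 43 and 5 with no filter, and 0 and 0 without the trend. pha-4 kept 0.94 with no filter but missed the threshold (limma adjusted p = 0.0575). hlh-1 passed with a pseudocount of 0.1 RPKM (1.39, limma adjusted p = 0.0462), and at 0.73 with status OK in every table (0.0454) or without the trend (0.0428). The hypoxia calls of the skr and tbx genes held under every alternative run that kept the gene, with a highest limma adjusted p of 0.0361. Past 2-fold, counts of all genes moved by more than 1.5 times with 5 RPKM, for hypoxia to 170 lower and 464 higher (control food, from 378 and 1010) and 191 and 528 (labelled elt-2 food, from 453 and 1052), and for RNAi to 197 lower and 52 higher (normoxia, from 390 and 131) and 327 and 88 (hypoxia, from 541 and 207). A mean of at least 5 RPKM gave 655 higher for hypoxia on control food, 70 higher for RNAi in normoxia, and 354 lower and 125 higher for RNAi in hypoxia, and 0.1 RPKM gave 233 higher for RNAi in normoxia.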

Other observations

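Several embryonic and sheath genes lay under the filter of 1 RPKM and are given here as values only, chosen after they were seen. lpr-3 was at 0.168 and 1.96 RPKM in control food normoxia and hypoxia and at 0.231 and 1.598 on labelled elt-2 food. fbn-1 was at 0.132 and 0.763 RPKM on control food and at 0.0761 and 0.899 on labelled elt-2 food. The homeobox gene ceh-34, a pharynx factor, was at 0.228 and 0.993 RPKM on control food and at 0.196 and 0.880 on labelled elt-2 food, and the forkhead gene let-381 at 0.149 and 0.832 and at 0.243 and 0.7997. In each of these the hypoxia libraries were the higher ones, but other genes under the filter went the other way. cnd-1 was at 0.711 and 0.270 RPKM on control food and at 0.503 and 0.280 on labelled elt-2 food. The values of end-3 and sdz-38 given above were also lower in hypoxia on both foods. tbx-30, a further T-box gene, was at 0.762 RPKM in control food normoxia and between 0.0465 and 0.154 RPKM in the other libraries.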
